A study of Mus musculus with 8 samples.

Results

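The genes of the cytosolic ribosomal proteins were taken from a ribosome profiling table of mouse liver by their symbols. Symbols that begin with Rpl or Rps and a digit were kept, the S6 kinases (Rps6k) were left out, and Rplp0, Rplp1, Rplp2, Rpsa and Fau were added. This gave 61 of the 7500 genes in the table, 37 with symbols of the large (60S) subunit and 24 with symbols of the small (40S) subunit. The livers came from male FVB/N mice that were given selenium-deficient food from weaning for 6 weeks, either with nothing added (0 Se) or with 0.1 ppm selenium as sodium selenite (0.1 Se). Each diet had 2 mice, and each of the 4 mice gave 2 libraries, which makes 8 in all. Ribosome profiling sequences the pieces of mRNA that ribosomes shield from nuclease, so that footprints on a coding sequence count ribosomes in the act of translation.

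The cytosolic ribosome makes all proteins encoded in the nucleus. Its small subunit holds the mRNA and reads the codons, and its large subunit joins the amino acids and leads the new chain out through a tunnel. Each ribosomal protein is generally present once per ribosome, except for the acidic stalk proteins, which are present in more than 1 copy. Their mRNAs usually begin with a C followed by a run of pyrimidines, the 5' terminal oligopyrimidine (TOP) tract, through which mTOR signalling controls their translation. The liver is a strong producer of secreted proteins and holds many ribosomes.

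The values used here were 1 abundance per gene, in log2 CPM (read counts scaled to a common library total), which the authors averaged over all libraries of both diets. The other columns hold the authors' own comparison of the diets and were not used. Values of single libraries were not used either, so no difference between the diets is given for any gene, the results below carry no test, SD over mice or n of mice, and library depth is unknown. Because a long coding sequence collects more footprints, each CPM was divided by the coding length over which footprints were counted. The result, log2 CPM per kilobase, is given as the density and is the scale on which genes are compared below. It rises with the amount of an mRNA as well as with the ribosomes on each copy. No mRNA level was used, so these were not told apart. The tissue label was checked against marker genes. Of 8 hepatocyte markers, 7 had a line, at log2 CPM values of 7.93 to 16.48, and they held 14.2% of total CPM. Markers of other liver cells were also present, with 5 of 6 for Kupffer cells, 3 of 4 for cholangiocytes, 5 of 5 for stellate cells, 4 of 4 for endothelial cells and 1 of 3 for lymphocytes, and each of these lists held 0.0485% of it or less. A level in whole liver does not tell more cells of a type from more RNA per cell.

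Of the 80 proteins of the canonical ribosome (47 large, 33 small), 58 had a line in the table. The symbol rule found 56 of these, and the other 2 carry names of another kind, among them Gnb2l1, which encodes the small subunit protein Rack1. The rule also took in 3 paralogs (Rpl22l1, Rpl36al and Rps27l) and 2 genes whose products are not counted as subunit proteins, Rpl7l1, which resembles Rpl7, and Rps19bp1, whose product binds Rps19. The 22 canonical genes not analysed here are 12 of the large subunit (Rpl6, Rpl7, Rpl15, Rpl21, Rpl23a, Rpl24, Rpl26, Rpl30, Rpl31, Rpl34, Rpl35a and Rpl41) and 10 of the small, Rps27 among them. The authors tested genes above 1 CPM in at least 3 samples, and no source used here states whether every tested gene was given a line. Nothing is therefore read from the lack of a line about the level of these 22 genes.

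To show the mRNA starts that the TOP rule describes, 30 bases around an annotated start are given below. They come from 5 members with a tract at the start, of both subunits. The members of highest density (Rpl39) and lowest density (Rpl37 and Rps23), which had no tract at the start base itself, are also given. The sequences are RefSeq's, in the GRCm38.p6 build, on the strand of the gene, with 15 bases before the start and 15 from the start on. Capitals mark a C at the start base with the pyrimidines that follow it, at least 4 of them. The windows lie at chr19:6057932-6057961 (Fau, plus strand), chr2:39005117-39005146 (Rpl35, minus), chr17:33955651-33955680 (Rps18, minus), chr4:86857353-86857382 (Rps6, minus), chr11:114668565-114668594 (Rpl38, plus), chrX:37085208-37085237 (Rpl39, minus), chr15:5116598-5116627 (Rpl37, plus) and chr13:90923107-90923136 (Rps23, plus).
Fau: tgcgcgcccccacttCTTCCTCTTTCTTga
Rpl35: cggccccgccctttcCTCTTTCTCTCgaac
Rps18: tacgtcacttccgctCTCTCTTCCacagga
Rps6: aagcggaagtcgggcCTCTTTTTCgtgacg
Rpl38: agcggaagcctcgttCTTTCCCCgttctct
Rpl39: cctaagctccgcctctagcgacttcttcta
Rpl37: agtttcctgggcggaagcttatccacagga
Rps23: gccttcggctgggcggggcttcccgcaatg

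Of the 61 genes, 49 had an entry in the promoter table, and 10 of these (20.4%) had a tract at an annotated start, against 3.01% of 27025 genes in that table. The 10 were Rpl38, Rpl28, Rpl14, Rpl35, Rplp2, Rps18, Rps6, Fau, Rps21 and Rps15a. The runs, the C included, reached 13 bases in Fau, 11 in Rpl35, 9 in Rps18 and Rps6, and 5 in Rplp2 and Rps21. With a start anywhere within 5 bases of the annotated one, the count was 22 of 49 members (44.9%) against 21.2% of all genes. By this wider rule, the windows printed for Rpl39 and Rps23 hold a tract, and the one printed for Rpl37 does not. Annotated starts can be some bases away from those used in the liver, so a missing tract says only that these letters are not at this position. The search used only the strand of the gene, and where a gene had several annotated starts a tract at any of them counted. The density of the 10 genes with a tract ranged from 5.31 to 9.27 with a median of 7.94, and that of the 39 without one from 3.22 to 9.75 with a median of 7.44. Both groups thus spanned most of the members' range.

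The ribosomal protein genes were mostly among the genes of highest footprint density in the table. Their median density was 7.54 (range 3.22 to 9.75), against 3.50 over all 7500 genes, a difference of 4.05 on the log2 scale or 16.5-fold. Above the 90th percentile of all genes, at 7.08, lay 45 of the 61 (73.8%, where all genes give 10%), and 59 lay above the median of all genes. The exceptions were Rpl37 and Rps23. Their coding sequences had a median of 396 counted bases, against 1344 over all genes, and their median log2 CPM was 6.30 against 3.95. The 61 genes together held 0.574% of total CPM, where 0.388% fell to the large and 0.186% to the small subunit symbols. The 5 most abundant members, Rpl4, Rps6, Rpl3, Rpl19 and Rpl7a, held 22.2% of the members' CPM.

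The median was 7.55 for the large subunit symbols (37 genes, 3.22 to 9.75) and 7.36 for the small (24 genes, 3.34 to 8.74), a difference of 0.20 on the log2 scale that was not tested. The SD of density over all 61 genes was 1.30. Among the 56 canonical genes, 39 lay within 1 log2 unit (2-fold) of their median of 7.54, and 4 lay over 2 log2 units (4-fold) below it: Rps15a, Rpl29, Rps23 and Rpl37. The whole canonical range was 6.53 log2 units, or 92.3-fold. The highest gene lay 2.21 above the median and the lowest 4.32 below it.

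**Figure D1:**
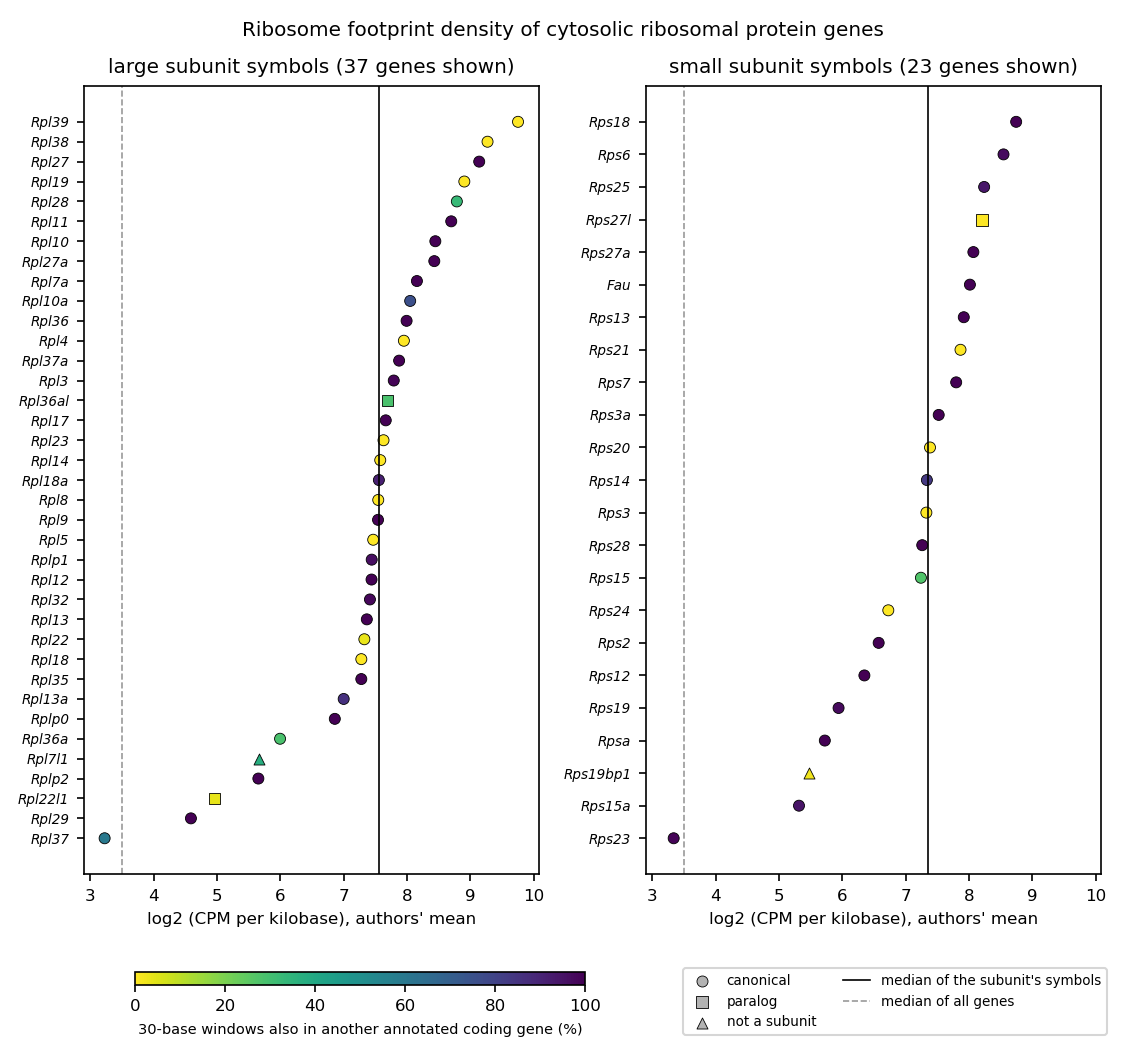
Footprint density of 60 of the 61 genes (x axis, log2 CPM per kilobase, the authors' mean over all libraries), large subunit symbols on the left and small on the right, ordered by density. Marker shape gives the kind of gene, colour the percentage of 30-base coding windows found within 2 mismatches in another annotated coding gene, the solid line the median of the subunit (7.55 and 7.36) and the dashed line the median of all genes (3.50). Most points lie between 7 and 9, and Rpl37 (3.22) and Rps23 (3.34) stand left of the dashed line.

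In the large subunit, the highest densities were those of Rpl39 (9.75), Rpl38 (9.27), Rpl27 (9.14), Rpl19 (8.90) and Rpl28 (8.79). Rpl39 (chrX:34622515-34625397 in mm9, minus strand) encodes a very small protein that lines the exit tunnel, and only 96 of its 156 coding bases were counted. With the 60 bases that were not counted put back into its length, its density was 9.05 and still the highest among the members. Rpl38 (chr11:114529838-114533645, plus strand), a small protein of the large subunit known for its part in the patterning of the mouse skeleton, was at 8.79 on the same scale, below Rpl27 at 8.91. The order of these 3 genes thus depended in part on the length used. No footprints were counted on the added bases, so this length lowers the shortest genes most. Rpl27, Rpl19 and Rpl28 are structural proteins of the large subunit that lie on its ribosomal RNA.

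The lowest large subunit densities were those of Rpl37 (3.22), Rpl29 (4.59), Rpl22l1 (4.96), Rplp2 (5.65) and Rpl7l1 (5.66). Rpl37 (chr15:5066613-5069140, plus strand), a zinc-binding protein of the large subunit, had 2.19 CPM over 234 counted bases. Rpl39, with fewer counted bases, had 82.8 CPM. Rpl29 (chr9:106331785-106333899, plus strand), which was also studied as a protein that binds heparin, had 10.2 CPM.

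In the small subunit, Rps18 (8.74), Rps6 (8.54), Rps25 (8.24) and Rps27l (8.21) were among the 5 highest. Rps18 (chr17:34088944-34092946, minus strand) encodes a protein of the head of the small subunit. Rps6 (chr4:86500564-86503316, minus strand) encodes the protein that the S6 kinases phosphorylate, and at 258 CPM it was the most abundant small subunit gene. Both have a tract at the start, as printed above. Rps25 encodes a protein near the exit site for tRNA, with a known part in initiation at viral internal entry sites.

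The lowest small subunit densities were those of Rps23 (3.34), Rps15a (5.31), Rps19bp1 (5.47), Rpsa (5.72) and Rps19 (5.94). Rps23 (chr13:91062727-91064329, plus strand), which encodes a protein next to the decoding centre, had 3.76 CPM over 372 counted bases. Rpsa encodes a protein that was first described as a laminin receptor, and Rps19 is the gene most often mutated in Diamond-Blackfan anaemia. Apart from Rps23, these genes were still above the median of all genes.

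Proteins that act together differed in density. The P stalk, which draws translation factors with GTPase activity to the ribosome, consists of Rplp0 and the acidic proteins Rplp1 and Rplp2, with Rpl12 at its base. Rplp1 was at 7.44, Rpl12 at 7.44, Rplp0 at 6.86 and Rplp2 at 5.65. Rplp1 was 3.46-fold higher than Rplp2, with which it forms pairs in the stalk, and 0.58 log2 units above Rplp0. Of the proteins that carry the 5S ribosomal RNA into the large subunit and, when free, hold back Mdm2, Rpl11 (8.70) was 2.35-fold higher than Rpl5 (7.46).

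Around the exit of the tunnel, 4 of 7 genes had a line, and all 4 were above the 90th percentile: Rpl39 (9.75), Rpl19 (8.90), Rpl17 (7.66) and Rpl35 (7.28). So were most canonical large subunit genes, 28 of 34 (82.4%) with these 4 included. Rpl35 is the protein near which the nascent chain meets the signal recognition particle. Along the entry path of the mRNA, Rps3 (7.33), Rps2 (6.57) and Fau (8.01) had densities on both sides of the small subunit median. Rps27a (8.07) and Fau (8.01) are made as fusions with ubiquitin and with a protein like ubiquitin, and they differed by 1.04-fold.

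The paralogs stood on both sides of the genes they resemble. Rpl22 (7.33) was 5.17-fold above Rpl22l1 (4.96), which can take its place in the ribosome. The coding sequences of this pair had 67.5% of aligned bases in common. Rpl36al (7.68; chr12:70283718-70285070, minus strand) was 3.23-fold above Rpl36a (5.99; chrX:131120193-131122601, plus strand), of which it is a close copy. Rps27l, a paralog of Rps27 that p53 is known to induce, was at 8.21. Rps27 itself was not analysed here.

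Rpl36a and Rpl36al shared 87.8% of 321 aligned coding bases, and 28.9% of the 30-base windows of Rpl36a lay within 2 mismatches of a window in its copy. Coding bases 166 to 195 of both are printed, from the mm9 transcripts, because they show a window in which the genes can be told apart. The 5 differing bases are in capitals.
Rpl36a: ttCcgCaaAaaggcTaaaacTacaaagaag
Rpl36al: ttTcgAaaGaaggcCaaaacCacaaagaag

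Ribosomal protein genes have many near-identical copies in the mouse genome, most of them processed pseudogenes. The authors counted only reads that aligned uniquely among RefSeq mRNA sequences, not across the genome. A copy without an entry among those sequences did not enter that alignment. To look at copies among annotated coding genes, each counted coding sequence was cut into all 30-base windows. Each window was sought, with up to 2 mismatches, on the same strand of the longest coding sequence of every other coding gene in the mm9 annotation. Pseudogenes that are not annotated as coding were not searched. Against the 20265 genes with a curated RefSeq mRNA, 48 of the 56 canonical genes had no shared window. Against all 22594 annotated coding genes, 13 had none, 39 had at least 50% of windows shared, and in 25 every window was shared. The authors took their RefSeq sequences for mm9 from the UCSC genome browser, and whether predicted entries were among them is not stated, so the share that applied to their counting is not known.

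The 4 lowest canonical genes were among the 39 of 56 that had at least 50% of windows shared, so most canonical genes were in that group. The 25 genes with every window shared had a median of 7.66. The 13 canonical genes with no shared window in any annotated coding gene ranged from 6.73 to 9.75 (median 7.58, SD 0.87). The 39 with at least 50% shared ranged from 3.22 to 9.14 (median 7.54, SD 1.36). The 4 lowest canonical genes, Rpl37, Rps23, Rpl29 and Rps15a, had 59.5%, 98.8%, 100% and 94.7% of windows shared, and none of their windows was shared with a curated gene. A high share did not go with a low density throughout, since Rpl27 and Rps18 had 100% of windows shared at 9.14 and 8.74. Over the 56 genes, Spearman's rho between density and share was -0.02, a description over genes that were measured in the same libraries. The part of lost reads in the low values of the 4 genes was not tested.

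**Figure D2:**
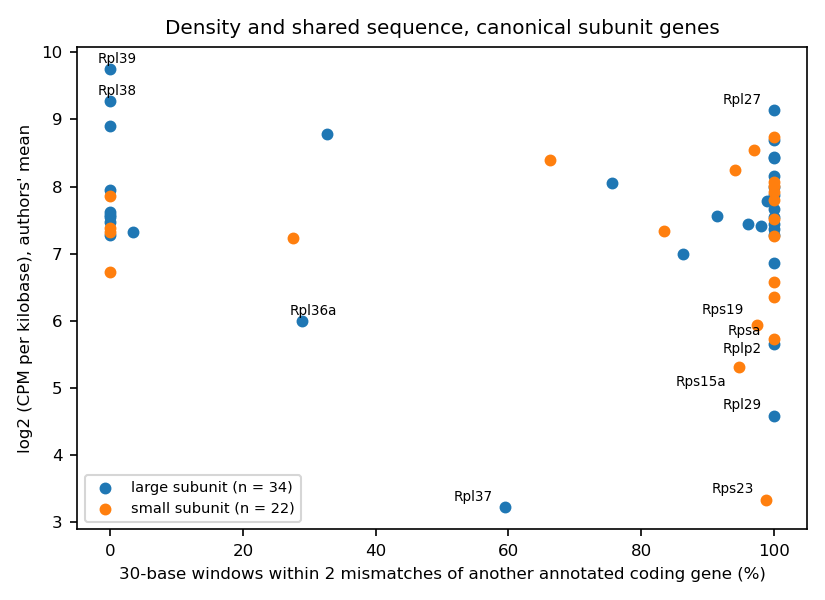
Footprint density (y axis, log2 CPM per kilobase, the authors' mean) of the 56 canonical genes against the percentage of their 30-base coding windows found within 2 mismatches in another annotated coding gene (x axis), coloured by subunit. Points without shared windows lie between 6.73 and 9.75, and those at the right spread from 3.34 (Rps23) to 9.14 (Rpl27).

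Length was also set against abundance. Over the 56 canonical genes, Spearman's rho was 0.63 between log2 CPM and counted length and 0.05 between density and counted length, whereas over all 7500 genes longer genes had lower densities (rho -0.45). The members share a narrow range of lengths, 96 to 1200 bases, and genes measured in the same libraries are not independent replicates.

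Against the mitochondrial ribosome, the proteasome and eIF3, the cytosolic ribosomal genes had the highest median. No further complexes were looked at. The genes of mitochondrial ribosomal proteins, which build the ribosome of the mitochondrion and are found by their own symbols (Mrpl and Mrps), had a median of 5.67 over 54 genes, so that the cytosolic median was 3.65-fold higher. Of these 54 genes, 3 were above the 90th percentile, against 45 of the 61 cytosolic ones. The subunits of the proteasome had a median of 6.80 over 22 genes, and those of initiation factor eIF3 one of 6.12 over 9 genes. Other genes known for TOP mRNAs, such as elongation factor Eef2 (8.55) and Tpt1 (8.55), had a median of 6.16, with 13 of 18 having a line. This list includes Gnb2l1 (7.29) and the eIF3 genes Eif3e and Eif3f. Ribosome assembly factors, with 30 of 41 genes having a line, had a median of 4.14, and in this list nucleophosmin (Npm1, 7.62) and Nop10 (7.51), a small protein of pseudouridylation particles, were above the 90th percentile. The range of the cytosolic genes overlapped that of every other group.

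**Figure D3:**
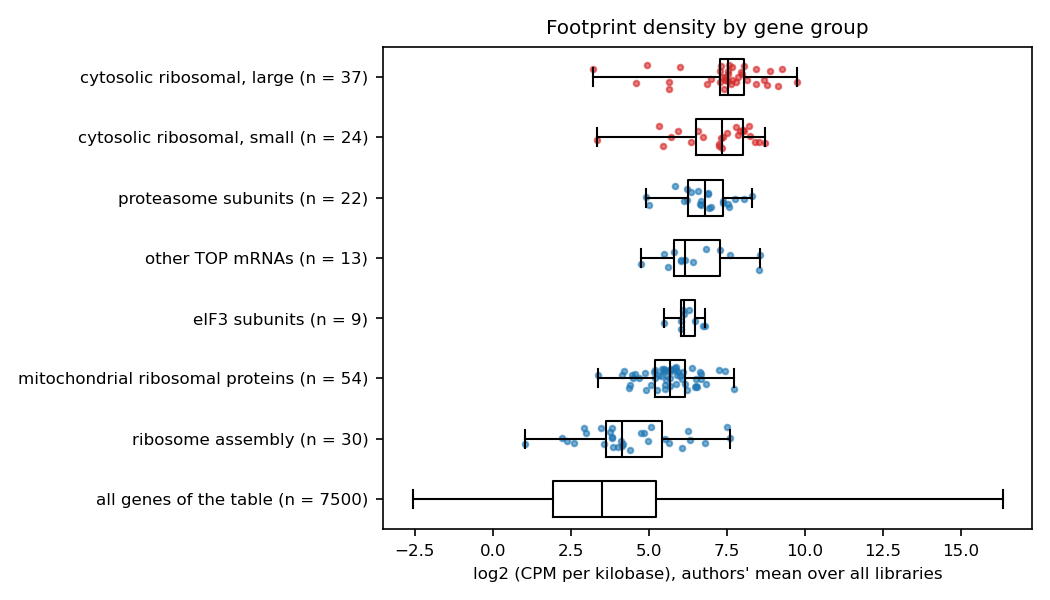
Footprint density (x axis, log2 CPM per kilobase, the authors' mean over all libraries) by gene group. Points are genes, boxes span the quartiles with the median as a line, and whiskers reach the lowest and highest gene; points are not drawn for all genes. The cytosolic ribosomal groups have medians of 7.55 and 7.36, against 5.67 for mitochondrial ribosomal proteins and 3.50 for all genes.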

How the data were processed

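Footprints of liver from 4 mice (8 libraries) were analysed. Per the study's methods, the authors trimmed adapters, removed ribosomal RNA reads with Bowtie and counted reads that aligned uniquely, with up to 2 mismatches, to the longest RefSeq isoform of each mRNA (mm9), without the first 15 and last 3 codons. The deposited log2 CPM is the authors' mean over all libraries by edgeR, for which no version was found in the sources used here. The columns of linear and log2 fold change, p-value and false discovery rate hold their comparison of the diets and were not used. The edgeR test planned here needs counts per library and was not run. No column held values of a single sample.

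Density was log2 CPM minus log2 of the deposited length in kilobases. That length already lacks the excluded codons: in 61 of 61 members the annotated coding sequence was 60 bases longer. Windows were compared with gencode coding sequences of mm9 (numba 0.67.0, tested on simulated data), promoters with RefSeq's GRCm38.p6 table, and summaries made with pandas 2.3.3 and scipy 1.17.1. Protein sequences were not used here. Groups came from the sample titles, and mouse numbers are not shared between diets.

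The members and lists were chosen with earlier results of these data known. Some genes, 1 of the 5 highest of the small subunit among them, are not reported here. The text otherwise names the 5 highest and 5 lowest genes of each subunit, the genes of the role groups, and the paralogs and non-subunit genes; the most abundant genes Rpl4, Rpl3 and Rpl7a, the genes with a tract, and genes of other groups were named after values were seen. The restriction of the window search to curated RefSeq genes, its form with mismatches, the 50% split, the tract's definition and the placing of Rpl7l1 and Rps19bp1 among non-subunit genes were also chosen after values were seen. Alternatives concerned the length, the gene list, low values, short genes and shared windows.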

Additional observations from a re-analysis of the deposited data

How the results depend on the processing

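The value of a result was taken as changed when it moved by 0.005 or more, since no spread between replicates could be had. No result reversed. With the 60 bases that were not counted put back into the length, the medians were 7.39 (large) and 7.17 (small), their difference 0.22 and the SD 1.29. With canonical genes alone, the large median was 7.57, the difference 0.21 and the SD 1.26. With a log2 CPM of at least 3, which leaves out Rpl37 and Rps23, the values were 7.57, 7.38, 0.18 and an SD of 1.07. With at least 300 counted bases, the small median was 7.33, the difference 0.22 and the SD 1.19. The SD was 1.31 when the number of windows without an exact copy in a curated gene took the place of the length. It was 1.31 when copies with up to 2 mismatches were left out too, an alternative chosen after seeing the data. A sequence has fewer windows than bases, so genes without copies moved as well, such as Rpl39 from 9.75 to 10.27. These 2 settings therefore do not show the effect of copies alone. Among canonical genes with no window in any other annotated coding gene, also chosen after seeing the data, the large median was 7.63, the difference 0.27 and the SD 0.87. The share of footprints was 0.557% with the canonical genes of the symbol rule, an alternative chosen after seeing the data, and 0.67% of the summed CPM of the table, whose lines hold 85.7% of total CPM. The planned share over another gene list is not reported here. Leaving out each mouse was not run, because values of single libraries were not used. No paired analysis was possible because the columns used carry no replicate numbers and no test was made. The depth is unknown, so the precision of low values such as those of Rpl37 and Rps23 cannot be given.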

Other observations

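The S6 kinase genes that the symbol rule leaves out, whose products include the kinases that phosphorylate Rps6, had 4 lines in the table. Their median density was under that of the ribosomal genes (7.54), although Rps6ka1 and Rps6kb1 lay above Rpl37 (3.22) and Rps23 (3.34). Rps6ka1 was at 3.81, Rps6kb1 at 3.46, Rps6kc1 at 1.35 and Rps6ka5 at -0.22 on the log2 CPM per kilobase scale, with a median of 2.41 against 3.50 over all genes.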
